A study of Mus musculus with 18 samples.

Results

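The genes described here are 8 genes of MHC class I antigen presentation, H2-K1, H2-D1, H2-T23, B2m, Tap1, Tap2, Tapbp and Nlrc5, of 54532 genes counted in 18 RNA-seq libraries of sorted wildtype (WT) mouse cones. They were chosen by name from their place in the pathway, with earlier results of these data known, and all 8 were found in the count tables. Cones are the photoreceptors of daylight vision. They were taken from BALB/c mice, an albino strain, at postnatal day 21 (6 control and 6 Txnip libraries) and from C57BL/6J mice at postnatal day 35 (3 control and 3 Txnip libraries). Every eye was injected at P0 with an adeno-associated virus (AAV) that expresses H2BGFP, a fluorescent histone that marks cones for sorting, and Txnip eyes also received a virus in which the red opsin promoter drives Txnip. Cells were sorted by the H2BGFP marker, so the libraries describe infected cells, and both control and Txnip cones had met a virus. Txnip eyes received the Txnip virus on top of the H2BGFP virus. The Txnip effect therefore cannot be told apart from that of a second virus and a larger dose. By the study's methods the red opsin promoter is also weakly active in some rods. Strain, age and project folder go together in this design, and the strains also differ in H2 haplotype (the d haplotype in BALB/c, the b haplotype in C57BL/6J), while pairs were mapped to the C57BL/6J genome. Strain, age, folder and the mapping of a foreign haplotype therefore cannot be told apart in any comparison between the strains.

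MHC class I molecules show short peptides from inside a cell to cytotoxic T cells. A class I heavy chain, here H2-K1, H2-D1 or the non-classical H2-T23, pairs with beta-2 microglobulin (B2m), and the TAP transporter, made of Tap1 and Tap2, carries peptides from the cytosol into the endoplasmic reticulum, where tapasin (Tapbp) holds TAP and the empty heavy chain together until a peptide binds. Nlrc5 is a transactivator that is recruited to class I promoters, and interferons raise most genes of the pathway. Neurons are known for low levels of class I genes in the absence of inflammation.

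The libraries held 647712 to 5172156 counted pairs each. Txnip, the gene the virus carries, had 0 to 3 counts in every control library and 663 to 8536 in every Txnip library, which matched the labels. Cone markers took 3.62% to 9.58% of counts, rod markers 0.845% to 2.28% and Müller glia and astrocyte markers 0.0368% to 0.1496%. The 13 markers of microglia and macrophages, cells that carry much class I, summed to 31 to 224 counts a library with 3 to 10 of the 13 at 0. Cx3cr1, P2ry12, Tmem119 and Aif1, which define microglia, had at most 5 counts in any library. The 11 lymphocyte markers summed to 2 to 53 counts and the 12 endothelial and pericyte markers to 6 to 187. The highest endothelial counts were in C57BL/6J Txnip replicate 2 and C57BL/6J control replicate 1, libraries whose rod shares, 1.55% and 2.28%, were also the highest of their groups.

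The promoters of 4 members are shown because the class I heavy chains, their partner B2m and the TAP subunit Tap1 are the members whose levels are followed most closely here, and their shared control is read at the start of the gene. The sequences are RefSeq's, build GRCm38.p6, and are the 250 bases before RefSeq's start site, 5′ to 3′ on the strand of the gene. RefSeq's start of H2-D1 lies inside the gene as the annotation used for counting has it, so that its window does too, as does that of Tapbp and, in part, that of H2-T23. They are H2-K1 (chr17:34000348-34000597, minus strand), H2-D1 (chr17:35262844-35263093, plus strand), B2m (chr2:122147437-122147686, plus strand) and Tap1 (chr17:34187306-34187555, plus strand). Capitals mark matches on either strand to GAANNGAAA or GAAANNGAA (the core of interferon-response elements), TGACG (the core of the X2 box of MHC promoters) and CCAAT (the core of the Y box).
H2-K1: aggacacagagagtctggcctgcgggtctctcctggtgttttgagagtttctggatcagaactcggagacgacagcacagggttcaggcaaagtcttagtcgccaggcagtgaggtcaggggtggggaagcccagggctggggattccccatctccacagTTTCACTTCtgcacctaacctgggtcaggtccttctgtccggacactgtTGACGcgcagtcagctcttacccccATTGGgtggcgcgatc
H2-D1: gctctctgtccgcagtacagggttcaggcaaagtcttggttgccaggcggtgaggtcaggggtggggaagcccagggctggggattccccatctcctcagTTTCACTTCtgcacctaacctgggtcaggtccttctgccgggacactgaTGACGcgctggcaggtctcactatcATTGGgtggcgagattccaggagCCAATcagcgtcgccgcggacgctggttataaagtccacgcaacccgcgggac
B2m: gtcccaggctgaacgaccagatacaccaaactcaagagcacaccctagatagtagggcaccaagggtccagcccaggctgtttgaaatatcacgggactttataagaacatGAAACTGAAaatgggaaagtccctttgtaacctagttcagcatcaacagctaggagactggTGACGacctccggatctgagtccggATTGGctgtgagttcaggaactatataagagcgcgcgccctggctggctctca
Tap1: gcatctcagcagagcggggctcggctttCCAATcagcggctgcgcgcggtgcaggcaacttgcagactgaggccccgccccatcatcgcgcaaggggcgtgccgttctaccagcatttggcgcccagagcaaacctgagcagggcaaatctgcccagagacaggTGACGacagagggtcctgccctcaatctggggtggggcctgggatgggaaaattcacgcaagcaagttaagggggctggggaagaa
H2-K1 and H2-D1 had the same 47 bases in 1 run upstream of the interferon-response match, and both held GAANNGAAA on the minus strand, 90 bases before the start in H2-K1 and 150 before it in H2-D1. B2m held GAAANNGAA on the plus strand, 139 bases before the start, and Tap1 held neither form in this window. At least 1 of the 2 forms stood in 12.5% of the 32851 promoters of the table, TGACG in 17.8% and CCAAT in 33.8%. An interferon-response form together with TGACG and CCAAT, as in H2-K1, H2-D1 and B2m, stood in 0.679%. The window of H2-T23 held GAAANNGAA and CCAAT, and that of Tapbp held CCAAT only. Tap2 and Nlrc5 had no entry in the table. A match describes the letters and not a site in use, and no match says nothing about the factor.

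Of the members, 6 lie on chromosome 17 in or near the H2 region (GRCm38): Tapbp at chr17:33915899-33929288, H2-K1 at chr17:33996017-34000333, Tap1 at chr17:34187553-34197225, Tap2 at chr17:34203527-34216321, H2-D1 at chr17:35262730-35267499 and H2-T23 at chr17:36029773-36032855. B2m lies at chr2:122147686-122153083 and Nlrc5 at chr8:94434356-94527272. Counts were taken over all annotated exons of a gene, untranslated parts included.

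In control cones the heavy chains H2-D1 and H2-K1 and tapasin were the most abundant members, and B2m and Tap1 were far lower. Levels between genes are compared per kilobase of exon, as CPM (counts scaled to library size with TMM factors) per kb, mean ± SD. In BALB/c control cones (n = 6) the order was H2-D1 at 63.2 ± 15.4, Tapbp at 48.6 ± 8.503, H2-K1 at 28.8 ± 9.35, B2m at 7.57 ± 3.36, Tap2 at 5.10 ± 2.07, Tap1 at 1.39 ± 0.424, H2-T23 at 0.420 ± 0.228 and Nlrc5 at 0.259 ± 0.252 CPM per kb. H2-D1 stood above Tapbp, and Tapbp above H2-K1, in 6 of 6 libraries, although the ranges of these neighbours overlapped. H2-K1 and B2m did not overlap. B2m and Tap2 overlapped, with B2m higher in 5 of 6, and H2-T23 and Nlrc5 could not be put in order. A bulk library cannot tell fewer cells with a transcript from less of it per cell.

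The same genes led in C57BL/6J control cones (n = 3), with H2-D1 at 59.0 ± 16.1, Tapbp at 39.1 ± 0.5681 and H2-K1 at 23.1 ± 8.10 CPM per kb, 3 levels whose ranges did not overlap. Tap2 followed at 5.97 ± 2.49 and B2m at 3.44 ± 4.39, with ranges that overlapped. Tap1 at 0.286 ± 0.151, H2-T23 at 0.115 ± 0.126 and Nlrc5 at 0.0531 ± 0.0274 came last. Per kb, H2-D1 was thus 8.35 times B2m in BALB/c control cones and 17.2 times B2m in C57BL/6J control cones, and 45.4 and 206 times Tap1. The C57BL/6J ratios rest on single libraries. Without control replicate 1 they were 64.8 to B2m and 315 to Tap1. Without control replicate 2 they were 12.5 and 195, and without control replicate 3 they were 11.9 and 151. Among the 14751 genes tested in the fit of all 4 groups, H2-D1 ranked 666 and 743 by level per kb in BALB/c and C57BL/6J control cones, Tapbp 922 and 1236, H2-K1 1682 and 2197, B2m 5816 and 8888, and Tap1 12088 and 13939.

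**Figure D1:**
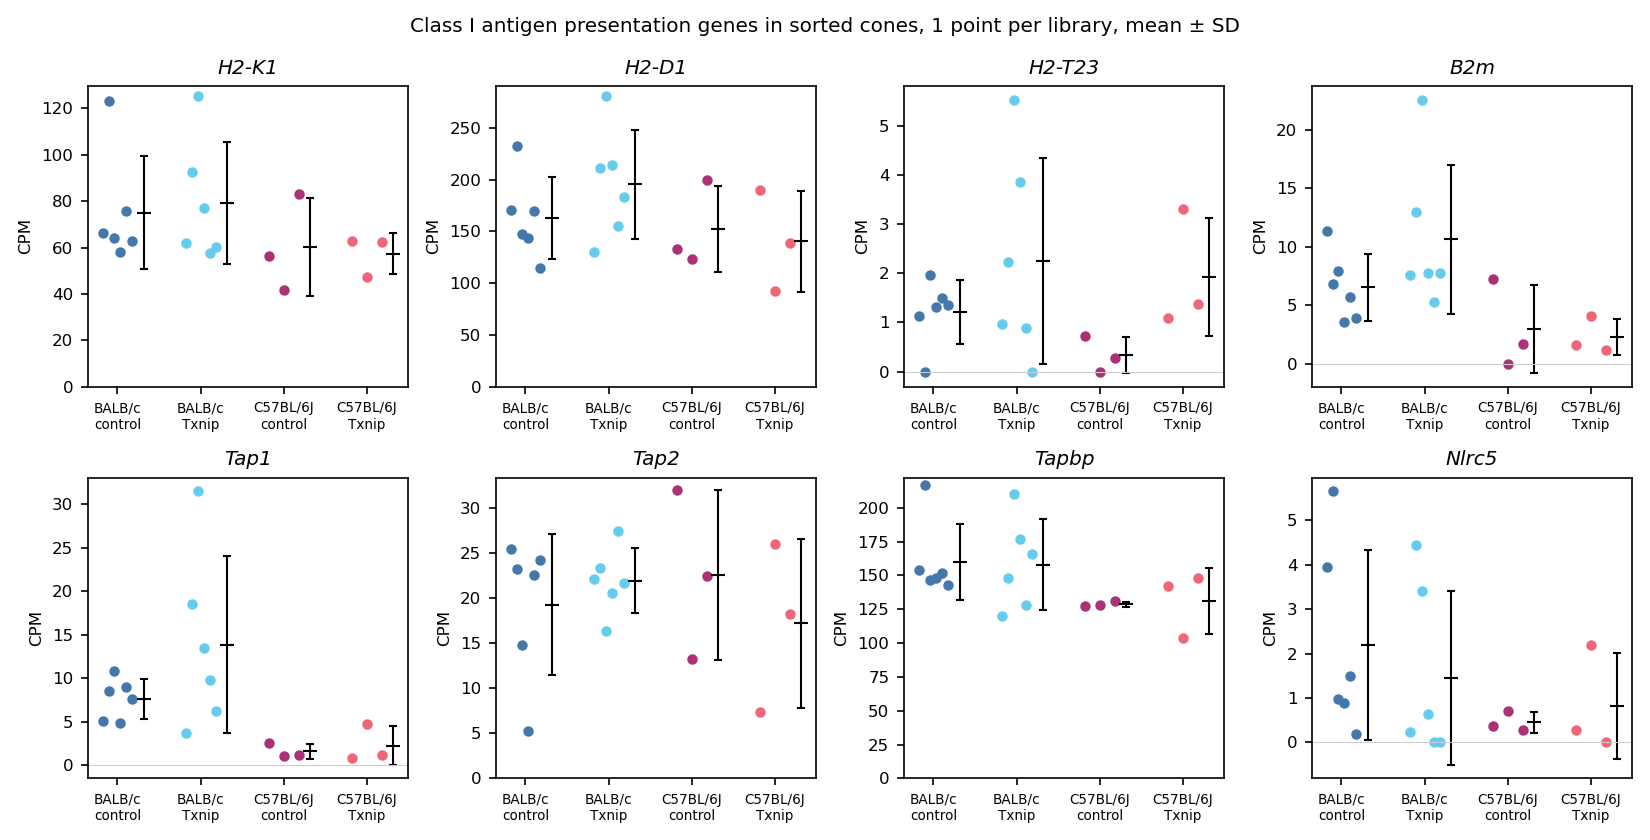
The level of each of the 8 genes in CPM (linear axis) in every library, 1 point per library, with the mean and SD of each group beside the points (n = 6 in BALB/c groups, n = 3 in C57BL/6J groups). The 3 C57BL/6J control libraries lie between 1.07 and 2.52 CPM for Tap1, below all 6 BALB/c control libraries (4.84 to 10.9 CPM), while H2-K1 and H2-D1 overlap between strains.

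The strain difference asks whether cones of the 2 strains carry the pathway at unlike levels. In control cones Tap1, a TAP subunit, was lower in C57BL/6J, and the other tested members did not pass the test. Tap1 in BALB/c control cones ran from 4.84 CPM over a median of 8.03 to 10.9 CPM, and in C57BL/6J control cones it was 2.52, 1.07 and 1.11 CPM, from 7, 3 and 4 counts. The groups did not overlap, as for 9.66% of the genes tested that were lower in all C57BL/6J control libraries. The log2 fold change of C57BL/6J minus BALB/c was −2.28 (SE 0.66, adjusted p = 0.0199, edgeR quasi-likelihood test with Benjamini-Hochberg adjustment over 14751 genes). This was 1 of 7 members tested, where 17.5% of all genes tested passed (9.52% lower and 8.03% higher in C57BL/6J), so the count of members was near the share of all genes. H2-T23 did not pass the filter on counts. Tap1 and B2m passed it through the BALB/c libraries, in which 12 of 12 were at or over 3.46 CPM, against 1 of 6 C57BL/6J libraries for Tap1 and 2 of 6 for B2m, so that a difference was built into their being tested. The same holds for Nlrc5, with 2 of 6 BALB/c control, 1 of 6 BALB/c Txnip and 0 of 3 libraries in each C57BL/6J group.

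B2m, the light chain that every classical class I molecule needs, ran from 3.52 over 6.22 to 11.3 CPM in BALB/c control cones and was 7.20, 0 and 1.66 CPM in C57BL/6J control cones, where the 0 allows up to 1.07 CPM. These groups overlapped, and the log2 fold change of −1.11 (SE 0.67) did not pass (edgeR adjusted p = 0.273). The high C57BL/6J value came from control replicate 1, whose rod share was 2.28% and whose endothelial and pericyte markers summed to 117 counts. Leaving out this library gave −2.76 (edgeR adjusted p = 0.0209), and leaving out C57BL/6J Txnip replicate 2 as well gave −2.74 (edgeR adjusted p = 0.0136). The part of the other cells' RNA in the B2m value was not tested. The call of Tap1 was lost without C57BL/6J control replicate 2 (−2.12, edgeR adjusted p = 0.0625) or control replicate 3 (−2.06, edgeR adjusted p = 0.0980). Markers of cones and of other cells also differed between the strains. Of all genes tested, 17.5% were called in control cones, 8.03% higher and 9.52% lower in C57BL/6J. Beside this, 4 of 11 cone markers and 4 of 9 rod markers were higher in C57BL/6J. Of 8 tested Müller glia and astrocyte markers 2 were higher and 1 was lower. Of the microglia and macrophage markers 1 of 2 tested was higher (Csf1r, 0.94, SE 0.30, edgeR adjusted p = 0.0370), and of the retinal pigment epithelium markers 1 of 3 tested was lower (Lrat, −4.83, SE 1.01, edgeR adjusted p = 0.00176). The part of the other cells in the values of Tap1 and B2m was not tested.

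The heavy chains overlapped between the 2 strains in control cones. H2-D1 ran from 115 over 158 to 233 CPM in BALB/c control cones and was 133, 124 and 200 CPM in C57BL/6J control cones, and these groups overlapped (log2 fold change −0.09, SE 0.24, edgeR adjusted p = 0.838). H2-K1 ran from 58.1 over 65.2 to 123 CPM in BALB/c and was 56.2, 41.5 and 83.2 CPM in C57BL/6J, with a log2 fold change of −0.30 (SE 0.26, edgeR adjusted p = 0.469). Tapbp was 143 to 217 CPM in BALB/c and 127, 129 and 131 CPM in C57BL/6J, groups that did not overlap (lower in all C57BL/6J control libraries, as were 9.66% of genes tested), with a log2 fold change of −0.31 (SE 0.17) that did not pass (edgeR adjusted p = 0.233). Tap2, the other TAP subunit, was 5.28 to 25.5 CPM against 32.1, 13.2 and 22.5 CPM, with a log2 fold change of 0.22 (SE 0.37, edgeR adjusted p = 0.735). A p above the threshold does not show that the levels were the same. The median log2 fold change of the 7 tested members was −0.31, beside 0.00 for all genes tested. This median includes Tap1, B2m and Nlrc5, tested through BALB/c libraries, so a lower median was partly built in. H2-D1, H2-K1, Tapbp and Tap2, which passed the filter in both strains, ran from −0.31 to 0.22.

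In Txnip cones both Tap1 and B2m were lower in C57BL/6J. Tap1 ran from 3.65 over 11.6 to 31.5 CPM in BALB/c Txnip cones and was 0.814, 4.77 and 1.15 CPM in C57BL/6J Txnip cones, so that 1 C57BL/6J library lay within the BALB/c range. Its log2 fold change was −2.78 (SE 0.63, edgeR adjusted p = 0.00332). B2m ran from 5.31 over 7.73 to 22.6 CPM in BALB/c and was 1.63, 4.04 and 1.15 CPM in C57BL/6J, groups that did not overlap, as for 9.73% of genes tested that were lower in all C57BL/6J Txnip libraries, and its log2 fold change was −2.35 (SE 0.69, edgeR adjusted p = 0.0211). Both genes were at or over the filter in 6 of 6 BALB/c but 1 of 3 C57BL/6J Txnip libraries, so that a difference was built into their being tested, and their calls are a description. These were 2 of 7 members tested, beside 17.6% of all genes tested (9.38% lower and 8.24% higher in C57BL/6J). The median of the 7 was −0.49, beside 0.05 for all genes tested. This median includes Nlrc5, which also passed the filter through BALB/c libraries, besides Tap1 and B2m, so a lower median was partly built in. H2-D1, H2-K1, Tapbp and Tap2, which passed it in both strains, ran from −0.49 to −0.27. H2-D1 and H2-K1 were 0.48 and 0.49 lower on the log2 scale (SE 0.25 and 0.26) and did not pass (edgeR adjusted p = 0.194 and 0.216). The call of B2m was lost without BALB/c Txnip replicate 3 (−1.95, edgeR adjusted p = 0.0681), C57BL/6J Txnip replicate 1 (adjusted p = 0.0783) or C57BL/6J Txnip replicate 3 (adjusted p = 0.105), and that of Tap1 held with each library left out (edgeR adjusted p of at most 0.0298). The highest C57BL/6J Txnip values of both genes, 4.77 CPM for Tap1 and 4.04 CPM for B2m, came from replicate 2, with 187 endothelial and pericyte counts. In Txnip cones 5 of 11 cone markers and 1 of 9 rod markers were higher in C57BL/6J, beside 8.24% of all genes tested. Of the Müller glia and astrocyte markers 2 of 8 tested were higher and 1 lower. Of the retinal pigment epithelium markers 1 of 3 tested was lower, beside 9.38% of all genes tested. The part of the other cells in these values was not tested.

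**Figure D2:**
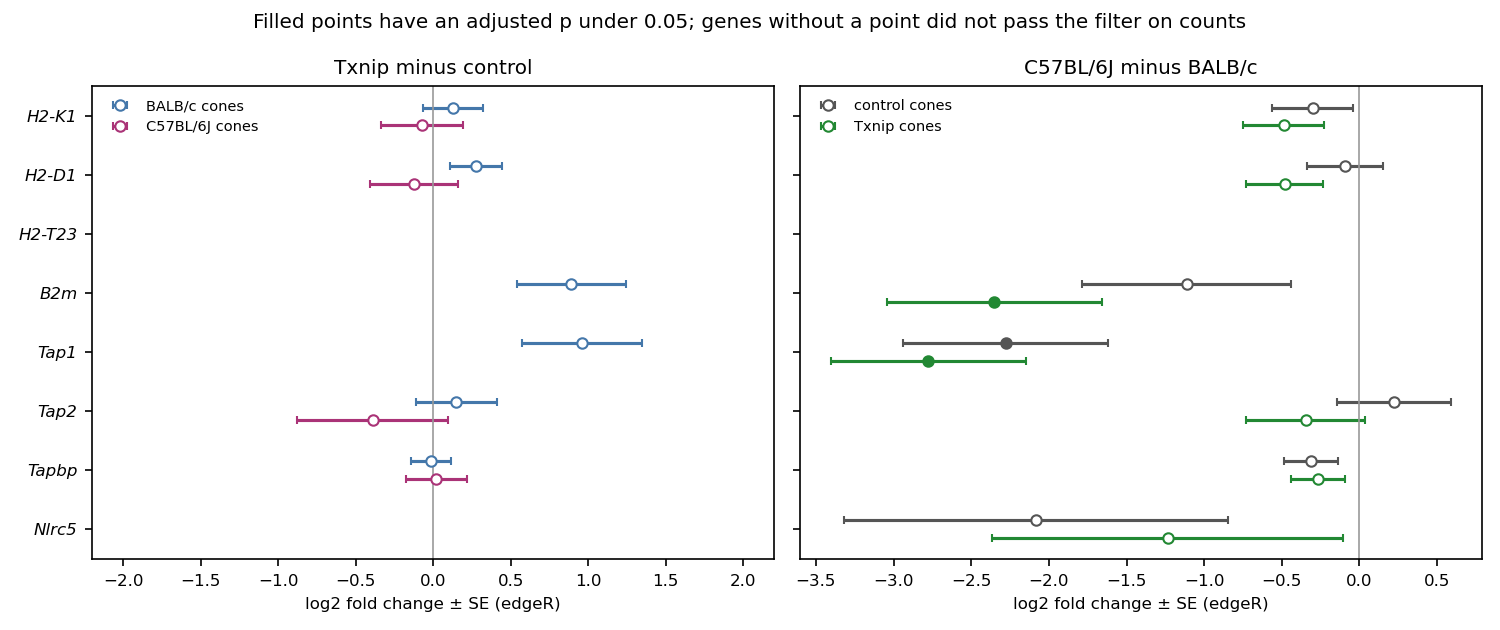
Log2 fold changes with their standard errors from edgeR, on the left of Txnip minus control within each strain and on the right of C57BL/6J minus BALB/c within control and within Txnip cones. Filled points, with an adjusted p under 0.05, are Tap1 in both strain comparisons (−2.28 and −2.78) and B2m in Txnip cones (−2.35), and no member is filled for Txnip.

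BALB/c and C57BL/6J carry different alleles and different sets of class I genes, so the ratio of the 2 classical heavy chains and the other genes of the family were read beside the members. The ratio of H2-K1 to H2-D1, as counts per kb, averaged 0.450 (geometric mean) over BALB/c control libraries and 0.386 over C57BL/6J control libraries, a log2 difference of −0.22. Single libraries ran from 0.385 to 0.540 in BALB/c and were 0.419, 0.333 and 0.412 in C57BL/6J, so the groups overlapped (two-sided exact permutation test, p = 0.190, adjusted over 2 comparisons 0.381, smallest p the design allows 0.0238). In Txnip cones the ratios were 0.397 and 0.419 (exact permutation p = 0.667, adjusted 0.667). H2-K1 was below H2-D1 in 18 of 18 libraries.

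Single genes of the wider class I family stood further apart between the strains. Of 34 genes of this list in the tables, 15 passed the filter. In control cones 3 of the 15 were higher and 6 lower in C57BL/6J (edgeR), beside 17.5% of all genes tested called in either direction. The median log2 fold change of the 15 was −0.68, beside 0.00 for all genes tested. Both the 6 lower and this median include genes that passed the filter through BALB/c libraries alone, so a lower median was partly built in. H2-Q10, a class I gene known for its secreted product in liver, was read at 10.09 over 14.3 to 20.7 CPM in BALB/c control cones and had 0 counts in all 3 C57BL/6J control libraries, at least 15.2-fold higher in BALB/c against a floor of 3 counts a library. Like Gm10499, Gm8909, H2-Q1 and H2-Q4, it passed the filter on counts through BALB/c libraries alone, so that a difference in these genes was built into their being tested. Gm10499 had 2.72 to 11.3 CPM in BALB/c control cones and 0 counts in all 6 C57BL/6J libraries, at least 6.16-fold higher in BALB/c. Gm8909 was also at 0 in C57BL/6J control cones, and H2-Q1, with 1.36 to 3.96 CPM in BALB/c control cones, had 1 count in all of them together.

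H2-Q4 and H2-T22 lay between these extremes, with log2 fold changes of −2.41 (SE 0.59) and −1.83 (SE 0.27, edgeR adjusted p = 4.2e-05). The opposite direction was shown by 3 genes. H2-Q6, a Qa-2 family gene, ran from 5.72 to 13.0 CPM in BALB/c control cones and was 24.9, 40.1 and 36.6 CPM in C57BL/6J (log2 fold change 2.10, SE 0.29, edgeR adjusted p = 2.4e-05). H2-T24 ran from 5.10 to 11.9 CPM and was 40.3, 46.5 and 28.8 CPM (2.13, SE 0.29, edgeR adjusted p = 1.3e-05), and H2-K2 was higher by 1.11 (SE 0.29, edgeR adjusted p = 0.0111). In Txnip cones 2 were higher and 6 lower of the 15, beside 17.6% of all genes tested called in either direction, and H2-K2 was no longer called. The 6 lower again held H2-Q10, Gm10499, Gm8909, H2-Q1 and H2-Q4, which were tested through BALB/c alone.

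Summed over the 31 genes of this list on chromosome 17, the level overlapped between the strains. The sum was 83.2 to 153 CPM in BALB/c control cones and 124 to 128 CPM in C57BL/6J control cones. H2-K1 and H2-D1 together summed to 177 to 356 and 165 to 283 CPM.

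The sequences of these genes are close to each other. Of all stretches of 50 bases in the annotated transcripts, the share that also occurs in another gene was 9.63% for H2-K1, 12.8% for H2-D1, 14.5% for H2-T23, 36.4% for H2-Q4, 35.0% for H2-Q6, 19.1% for H2-Q10 and 53.5% for H2-T22. Of H2-Q10's stretches, 4.54% occurred in H2-K1 or H2-D1. For B2m the share was 0%. These shares are those of the C57BL/6J genome, and BALB/c alleles were not analysed here, so a count for a class I gene in BALB/c may come from another gene of the family and its level is uncertain. Tap1 shared 3.33% and Tap2 11.6%, mostly with genes that overlap them: Psmb9 lies antisense over 212 of the 5476 exonic bases of Tap1, and Gm15821 over 533 of the 3781 of Tap2. Tapbp shared 20.2% of its 3296 exonic bases with the antisense Gm19412. The counting used no strand, so pairs in these bases could not be told apart.

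**Figure D3:**
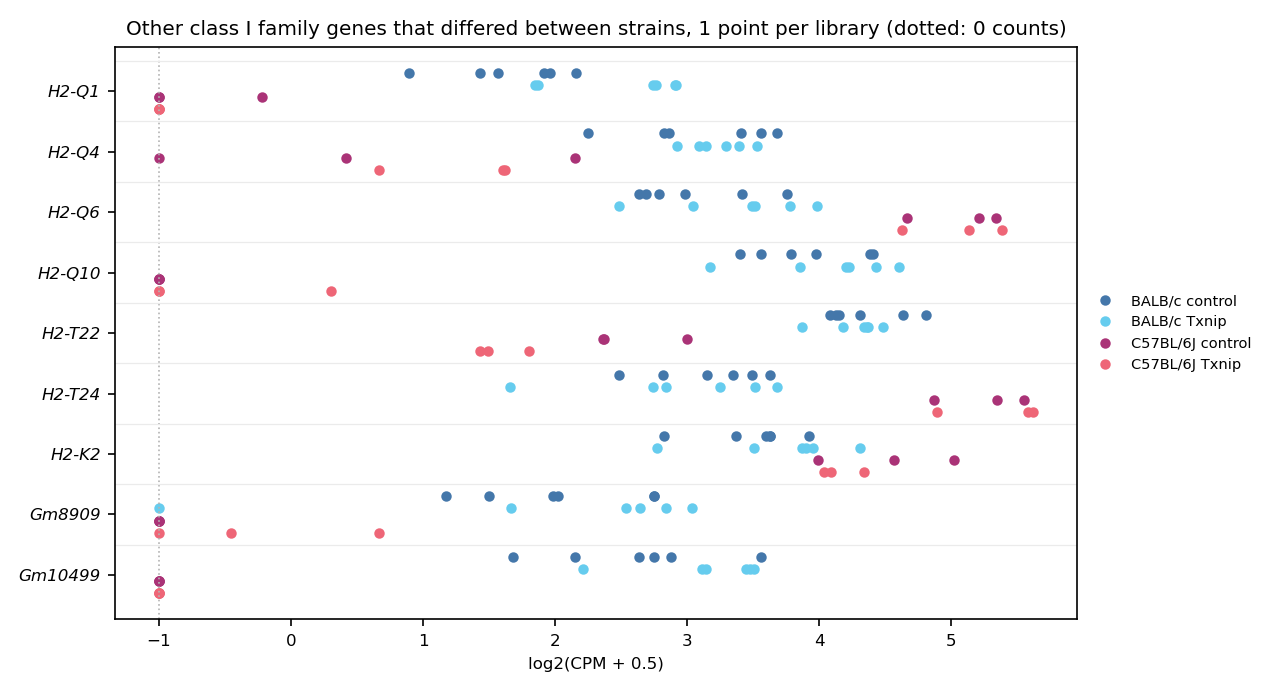
The 9 other class I family genes that differed between the strains in control cones, as log2(CPM + 0.5) in every library, 1 point per library, coloured by group, with a dotted line at 0 counts. H2-Q10 and Gm10499 lie to the right in BALB/c and at 0 counts in the 3 C57BL/6J control libraries, and H2-Q6 and H2-T24 lie further right in C57BL/6J than in any BALB/c library.

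Genes that neighbour the members on chromosome 17 are given here for comparison. Of 206 genes that start between 33915899 (Tapbp) and 36029773 (H2-T23) in GRCm38, 100 were tested and 23 called in control cones, 15 of them higher and 8 lower in C57BL/6J, beside 17.5% of all genes tested. Without the members and the listed class I and class II genes, 16 of 86 were called (18.6%), with a median log2 fold change of 0.08. In Txnip cones the counts were 20 of 100 and 13 of 86 (15.1%).

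The Txnip effect asks whether the virus that raises Txnip in cones changes the pathway. In BALB/c cones Txnip itself rose by 11.54 on the log2 scale (SE 0.22, edgeR adjusted p = 1.4e-18), and 0 of 6 members tested passed, beside 0.0166% of all 12017 genes. An unadjusted p under 0.05 was reached by 2 of the 6, B2m and Tap1, beside 11.4% of all genes tested, and DESeq2 called 0 of 5. B2m ran from 3.52 over 6.22 to 11.3 CPM in control and from 5.31 over 7.73 to 22.6 CPM in Txnip cones, a log2 fold change of 0.89 (SE 0.35, edgeR adjusted p = 0.3198). Tap1 ran from 4.84 over 8.03 to 10.9 CPM and from 3.65 over 11.6 to 31.5 CPM, with 0.96 (SE 0.39, edgeR adjusted p = 0.332). In both genes the groups overlapped and the highest value was that of Txnip replicate 3.

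Without Txnip replicate 3 the log2 fold changes of B2m and Tap1 were 0.46 and 0.45, the lowest over the libraries left out in turn. The 4 other tested members had smaller fold changes. H2-D1 differed by 0.28 (SE 0.17, edgeR adjusted p = 0.540), H2-K1 by 0.13 (SE 0.19, edgeR adjusted p = 0.843), Tap2 by 0.15 (SE 0.26, edgeR adjusted p = 0.867) and Tapbp by −0.01 (SE 0.13, edgeR adjusted p = 0.983). The median over the 6 was 0.21, beside 0.00 for all genes tested. H2-T23, with 0 to 7 counts in control and 0 to 26 in Txnip libraries, and Nlrc5, with 1 to 10 and 0 to 16, were too low for the filter.

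In C57BL/6J cones Txnip rose by 12.55 (SE 0.66, edgeR adjusted p = 1.3e-04), and 0 of 4 members tested passed, beside 0.0154% of 12974 genes, with 0 at an unadjusted p under 0.05 and 0 of 8 by DESeq2. H2-D1 was 133, 124 and 200 CPM in control and 190, 92.1 and 139 CPM in Txnip cones, a log2 fold change of −0.12 (SE 0.29, edgeR adjusted p = 1.00). H2-K1 was 56.2, 41.5 and 83.2 CPM and 62.7, 47.3 and 62.3 CPM (−0.07, SE 0.27). Tapbp differed by 0.02 (SE 0.20) and Tap2 by −0.39 (SE 0.49), and the median of the 4 was −0.10, beside 0.01 for all genes tested. H2-T23, at 2, 0 and 1 counts in control and 4, 9 and 6 in Txnip libraries, did not overlap between these groups, as for 2.22% of the 12974 genes tested that were higher in all 3 Txnip libraries, but it was too low to be tested by the fit. A difference in the Txnip effect between strains was called for 0 of 7 members tested (edgeR), with 0 at an unadjusted p under 0.05 and 0 of 8 by DESeq2, beside 0.0% of all 14751 genes. The differences in effect, C57BL/6J minus BALB/c, were −1.24 (SE 0.95) for B2m and −0.50 (SE 0.93) for Tap1.

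Single BALB/c libraries stood high for several members at once. Of the 8 members, 5 had their highest BALB/c value in Txnip replicate 3 (H2-K1, H2-D1, H2-T23, B2m and Tap1), a library that held the highest value for 6.15% of the 14751 genes. Its members stood at a median of 1.13 above the BALB/c median on the log2 scale, and those of Txnip replicate 2 at 0.51 and control replicate 2 at 0.25. The remaining 9 libraries had medians from −0.30 to 0.24. Tap1 was 31.5 CPM in Txnip replicate 3 and 18.6 CPM in Txnip replicate 2, and also 13.5 CPM in Txnip replicate 4, beside at most 10.9 CPM in control libraries. B2m was 22.6 and 13.0 CPM in Txnip replicates 3 and 2, beside at most 11.3 CPM in control libraries. H2-K1 was 125 CPM in Txnip replicate 3 and 123 CPM in control replicate 2.

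Irf9, a subunit of the interferon-activated factor that binds interferon-response elements, was highest in Txnip replicates 3 and 2 and control replicate 2, at 124 CPM in Txnip replicate 3, 75.9 CPM in control replicate 2 and 66.5 CPM in Txnip replicate 2, and 13.4 to 32.2 CPM in the other 9. Of the 13 class I regulators, Irf9 and 1 other were those whose 3 highest BALB/c values were in these libraries, and 3 of the 13 were highest in Txnip replicate 3. Stat2, chosen after its values were seen, was 82.2 CPM in Txnip replicate 3, but 51.6 CPM in Txnip replicate 2, below Txnip replicates 4 and 5 (57.2 and 61.9 CPM). Microglia and macrophage markers took 0.00368% of counts in Txnip replicate 3, 0.00250% in control replicate 2 and 0.00428% in Txnip replicate 2, beside 0.00302% to 0.00479% in the other 9. Müller glia and astrocyte markers took 0.132% in Txnip replicate 3, the highest BALB/c value. The part of either cell type in the pattern was not tested.

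**Figure D4:**
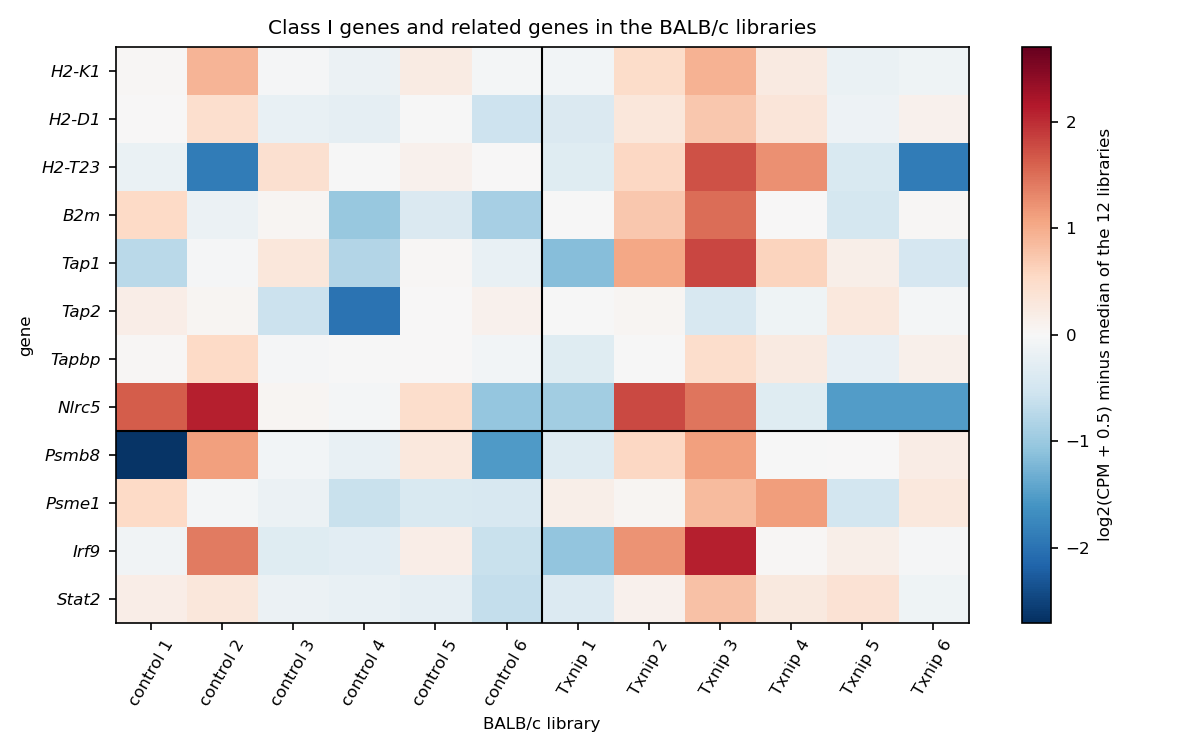
The 8 members (above the line) and 4 related genes (below it, of which Psmb8 and Stat2 were added after their values were seen) in the 12 BALB/c libraries, as log2(CPM + 0.5) minus the median of the 12, red for higher and blue for lower. Txnip replicate 3 is red for 7 of the 8 members. It is also red for the 4 related genes, but these were chosen from these data. Irf9 and Psme1 were drawn because they were called between the strains in Txnip cones. Of all 13 class I regulators, 3 were highest in Txnip replicate 3. Control replicate 2 and Txnip replicate 2 are red for Irf9 (1.40 and 1.21).

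By Pearson correlation of deviations from the group means over 18 libraries, among 5412 genes with a mean log2 CPM of at least 5, the genes most like H2-D1 were Eif2b1 (r = 0.91), Srprb (0.85) and H2-K1 (0.85). Those most like Tapbp were H2-D1 (0.84), Arid4b (0.81) and Cops7b (0.81). B2m, whose counts were low, was most like Rom1 (0.86) and Zdhhc22 (0.86). Without BALB/c Txnip replicate 3, r of H2-D1 with H2-K1 was 0.81 and that of Tapbp with H2-D1 was 0.80. The points share depth and scaling within a library, and these values describe the libraries only.

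Genes that make and load peptides, from a list of 10, were mostly expressed. In control cones 1 of 9 tested was lower in C57BL/6J and 0 were higher, beside 17.5% of all genes tested called in either direction. It was Canx, the chaperone calnexin, by 0.41 on the log2 scale (SE 0.12, edgeR adjusted p = 0.0258), and the median of the 9 was −0.29. This median includes Psmb8 and Psme1, tested only or mainly through BALB/c libraries, so a lower median was partly built in. In Txnip cones 3 of 9 were lower, beside 17.6% of all genes tested called in either direction. They were Canx (−0.55, SE 0.13), Calr, the chaperone calreticulin (−0.77, SE 0.24), and Psme1, a subunit of the proteasome activator (−2.03, SE 0.45). Psme1 was 6.19 to 19.9 CPM in BALB/c and 2.98, 2.94 and 3.00 CPM in C57BL/6J Txnip cones. It was at or over the filter in 12 of 12 BALB/c but 2 of 6 C57BL/6J libraries, so that it was tested mainly through the strain where it is high. The immunoproteasome subunit Psmb8, chosen after its values were seen, was at 0 to 6.23 CPM in all libraries. In C57BL/6J it reached at most 2.94 CPM, under the filter of 3.46 CPM, so that it was tested through BALB/c alone. Txnip changed 0 of 8 tested genes of this list in either strain (edgeR).

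Of 13 regulators of class I genes, 12 were tested and 0 passed the edgeR test in control cones, beside 17.5% of all genes tested, with Irf9 at −1.52 (SE 0.56, adjusted p = 0.0657). In Txnip cones 2 of the 12 were called, beside 17.6% of all genes tested. Rfx5, which binds the X box of MHC promoters, was higher in C57BL/6J (1.18, SE 0.31, edgeR adjusted p = 0.00900), and Irf9 was lower (−1.98, SE 0.55, edgeR adjusted p = 0.0149), at 13.4 to 124 CPM in BALB/c and 16.3, 11.4 and 10.8 CPM in C57BL/6J, so that these groups overlapped. For Txnip 0 of 11 tested regulators were called in either strain, beside 0.0166% of all genes tested in BALB/c and 0.0154% in C57BL/6J. MHC class II genes, the mark of professional antigen presenting cells, summed to 5.66 to 12.2 CPM over 12 genes in any library, and 2 of 12 passed the filter. Ciita, the class II transactivator, was higher in C57BL/6J control cones (1.86, SE 0.59, edgeR adjusted p = 0.0338), at 0 to 1.19 CPM in BALB/c and 3.24, 5.01 and 1.66 CPM in C57BL/6J, and H2-DMa was lower in C57BL/6J Txnip cones (−1.70, SE 0.53). H2-DMa was at or over the filter in 9 of 12 BALB/c and 0 of 6 C57BL/6J libraries, so that it was tested through the strain where it is high. Ciita was at or over it in 1 of 12 BALB/c and 2 of 6 C57BL/6J libraries, so that it was tested mainly through C57BL/6J. Both calls rest on at most 27 counts in a library, and each was lost without any filter on low counts and without single libraries.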

How the data were processed

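RNA-seq libraries were made by a modified Smart-Seq2 protocol from cones sorted by H2BGFP (the labels also speak of antibody staining). The authors counted read pairs per gene, and the deposited values are raw counts. By the file headers the counter was featureCounts 1.6.2 with Ensembl 94 exons on GRCm38, a pair being counted for each gene it overlaps and strand being ignored. STAR is named in the submitters' notes, without a version. How pairs that map to several places were treated follows from that counter's default, which leaves them out. How many pairs this took from class I genes was not measured here. A table per strain with the fold changes and p-values of the authors' own comparison was not used.

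Genes that passed filterByExpr were scaled by TMM and tested with edgeR 4.0.16 (glmQLFit and glmQLFTest, R 4.3.3) and Benjamini-Hochberg adjustment over all genes tested, at a threshold of 0.05. The Txnip effect was fitted within each strain and the strain differences in 1 fit over 4 groups. The H2-K1 to H2-D1 ratio, with 0.5 counts added, was compared by a two-sided exact permutation test. Log2 levels used a prior count of 2, and floors of 3 counts cover counting error only. The fits were checked on simulated counts. The labels name separate libraries but not the animals, so p-values measure the spread between libraries.

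Symbols were found for 54409 of 54532 identifiers. The members and lists were chosen with earlier results of these data known. Of the lists, the genes called in a comparison were named, and for H2-D1, B2m and Tapbp up to 3 genes most like each by correlation (1 is not reported here), and for the class I list H2-Q8, H2-Q9 and H2-L had no entry in the annotation used. Alternatives were DESeq2 1.42.0, DESeq2 size factors, 2 other filters, robust estimation, no ribosomal RNA locus or mitochondrial genes, other sample sets, the rod share as a covariate, the replicate number as a block and each library left out.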

Additional observations from a re-analysis of the deposited data

Results flagged for a closer look

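In groups of 6 libraries, a sample was taken as far from the others where its gap to the nearest, divided by the range of the group on the log2 scale, was above Dixon's critical value for 6 samples. This held for 4 of 16 gene and group pairs, and chance alone gives about 1 in 20 groups. In BALB/c control replicate 2, Tapbp (217 CPM, gap share 0.824) and H2-K1 (123 CPM, gap share 0.651) were high and H2-T23 was low (0 counts, gap share 0.718). That 0 allows up to 1.70 CPM, which lies within the 1.13 to 1.97 CPM of the other 5 libraries, so H2-T23 is not shown to stand apart there. In BALB/c control replicate 4, Tap2 was low (5.28 CPM from 12 counts, gap share 0.645). BALB/c Txnip replicate 3, which held the highest value of 5 members, did not pass this limit for any of the 8.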

How the results depend on the processing

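Tap1 in both strain comparisons and B2m in Txnip cones kept their direction in each of the 25 alternatives that tested them. The number of members called between strains in control cones was 1, and ran from 0 (without control replicate 2 or 3) to 2 (without control replicate 1) over C57BL/6J and other libraries left out. It was 2 (Tap1 and B2m) without C57BL/6J control replicate 1 and Txnip replicate 2 together, and 0 with at least 10 counts in every library, a filter that left 4 members without Tap1 or B2m. In Txnip cones it was 2, ran from 1 to 2 over libraries left out, and was 0 under that filter. The Txnip effect in BALB/c cones gave 1 member with all genes of at least 1 count tested, Tap1 (adjusted p = 0.0118). That setting called 1400 genes in BALB/c against 2, 5 in C57BL/6J against 2 and 186 for the strain difference in the Txnip effect against 0. DESeq2 called 76 genes in BALB/c. Without the pair of C57BL/6J libraries 2 genes were called for the strain difference in the Txnip effect. The filter of 10 counts called 0 genes for Txnip in each strain and 1507 and 1475 between strains. Leaving out 1 library gave 2 to 258 calls in BALB/c, the most without Txnip replicate 1, 1605 to 2930 between strains in control cones and 1848 to 2875 in Txnip cones. The cause of these shifts was not tested.

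Some uncalled values changed sign. Over libraries left out, the Txnip effect in BALB/c ran from −0.0696 to 0.31 for H2-K1, −0.0396 to 0.24 for Tap2 and −0.12 to 0.0863 for Tapbp. In C57BL/6J it ran from −0.28 to 0.22 for H2-K1, −0.38 to 0.11 for H2-D1 and −0.10 to 0.14 for Tapbp, which was −0.0050 with all genes of at least 1 count. H2-D1 was 0.0083 without the pair of C57BL/6J libraries. The strain difference in control cones ran from −0.34 to 0.0253 for H2-D1 and −0.12 to 0.46 for Tap2, which was −0.12 without that pair. In Txnip cones Tap2 ran from −0.75 to 0.0164. The strain difference in the Txnip effect ran from −0.39 to 0.12 for H2-K1, −1.90 to 0.39 for B2m, −0.0585 to 0.17 for Tapbp and −1.29 to 1.58 for Nlrc5, which was −1.38 without the pair. The log2 difference of the H2-K1 to H2-D1 ratio in Txnip cones ran from −0.0604 to 0.26.

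Same-numbered control and Txnip libraries correlated by −0.0646 to 0.0993 in BALB/c and −0.108 to 0.0782 in C57BL/6J, and the numbers were not taken to pair the samples. In C57BL/6J 0 of 3 control libraries correlated best with its own number, and each correlated by 0.380 to 0.436 with a Txnip library of another number. With the replicate number as a block, 0 members were called for Txnip in either strain and 0 for the strain difference in the effect. Counts of 0 to 39 for B2m and Tap1 outside BALB/c Txnip replicates 2 and 3 limit the precision of both genes.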
